A study of Mus musculus with 48 samples.

Results

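The blood and lymphatic vessels of mouse soft-tissue sarcomas were read here through 43 genes of endothelium, vessel-lining mural cells, angiogenic factors and adhesion molecules, all 43 of which were found by symbol among the 36854 genes of the deposited table. By role they comprised 21 genes expressed broadly by endothelial cells, 4 genes of lymphatic endothelium, 10 angiogenic ligands, receptors and Notch-pathway genes, 4 adhesion molecules that capture leukocytes and 4 genes of pericytes and other mural cells. The genes were chosen by name and function, with earlier results of these data known. RNA had been sequenced from 48 tumours of mice on the 129/SvJae background. The 32 primary tumours arose in the gastrocnemius of p53FL/FL mice aged 6 to 10 weeks that received an adenovirus with Cre recombinase, which deletes the floxed p53 alleles where it infects, and then 300 µg of the carcinogen MCA. The 16 allografts grew from 50000 cells of the sarcoma line 402230, given with matrigel into the same muscle of syngeneic mice, so every allograft represents that 1 line. At about 150 mm3 each mouse received 200 µg of an isotype control antibody or of muDX400, a murine antibody against PD-1, and directly afterwards 0 or 20 Gy of X-rays to the whole left hind limb. Tumours were taken 3 days later. The 8 groups were therefore 0 Gy with isotype, 0 Gy with anti-PD-1, 20 Gy with isotype and 20 Gy with anti-PD-1, each with 4 allografts and 8 primary tumours.

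Endothelial cells line vessels and hold together through junction proteins such as VE-cadherin and PECAM-1. Their growth is driven by VEGF ligands acting on the receptors VEGFR-1, VEGFR-2 and, mainly in lymphatic vessels, VEGFR-3, while the angiopoietins act on the receptor TIE2 and set how tightly endothelium and pericytes adhere. Inflamed endothelium displays selectins and the integrin ligands ICAM-1 and VCAM-1, through which leukocytes leave the blood, although ICAM-1 and VCAM-1 are also made by tumour cells, fibroblasts and macrophages. PD-1 is an inhibitory receptor on T cells.

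Library totals ran from 31.81 to 54.01 M counts with a median of 41.18 M. Levels are counts-per-million (CPM) after TMM scaling, which sets libraries to a common trimmed mean of log ratios, and all 43 genes passed the filter on low counts in every comparison. A gene was called when its p from edgeR's quasi-likelihood F test, adjusted over every gene tested by the Benjamini-Hochberg method, was below 0.05, and differences are log2 fold changes with their SE. The endothelial signal was followed through the 21 broad endothelial genes. None of these was at 0 in every tumour of a group, which does not by itself identify a cell type. Their summed level had group medians of 769.4 to 1180 CPM, with single tumours between 429.1 and 1794 CPM. Each sample title carries its own number, which the labels do not describe as that of a mouse, so p-values measure the spread between tumours. In such bulk samples fewer endothelial cells and less RNA per endothelial cell cannot be told apart.

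Icam1, the gene of ICAM-1, was called higher after radiation in 5 of the 6 comparisons of irradiated with unirradiated groups, and no other gene of the set was called in more than 2. The comparisons that included 0 Gy with isotype share those control tumours within a tumour kind. Among allografts given isotype, 20 Gy against 0 Gy called 2 of the 43 genes, Icam1 and Kdr, both higher, against 5.14% of all genes tested (4.4% higher and 0.744% lower). With anti-PD-1 at both doses it called Icam1 alone, against 3.96% of all genes (3.13% higher and 0.828% lower), and the combination against 0 Gy with isotype called Icam1 and Kdr, against 9.66% (7.43% higher and 2.23% lower). Among primary tumours given isotype it called Icam1 alone, against 14.5% of all genes (7.85% higher and 6.64% lower). With anti-PD-1 at both doses it called Mmrn2 and Angpt1 higher and Cspg4 lower, against 7.92% (6.06% higher and 1.86% lower). The combination against 0 Gy with isotype called Icam1, Mmrn2 and Angpt1 higher, against 13.8% (8.78% higher and 4.98% lower). In all 6 comparisons the share of the 43 genes called, 2.33 to 6.98%, lay below the share of all genes called. That order was kept in all 23 alternatives (other settings and left-out tumours) for primary tumours with isotype, and turned in others. In allografts with isotype it turned in 11 of 15 alternatives, among them 6 of 43 against 7.85% of all genes without replicate 3 at 0 Gy and 5 of 43 against 3.26% without replicate 1 at 20 Gy. It also turned in 3 of 15 for allografts with anti-PD-1 and 1 of 15 for their combination, and in 7 of 23 for primary tumours with anti-PD-1, among them 6 of 43 against 11.2% with all 48 tumours in a fit, and 3 of 23 for their combination.

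**Figure D1:**
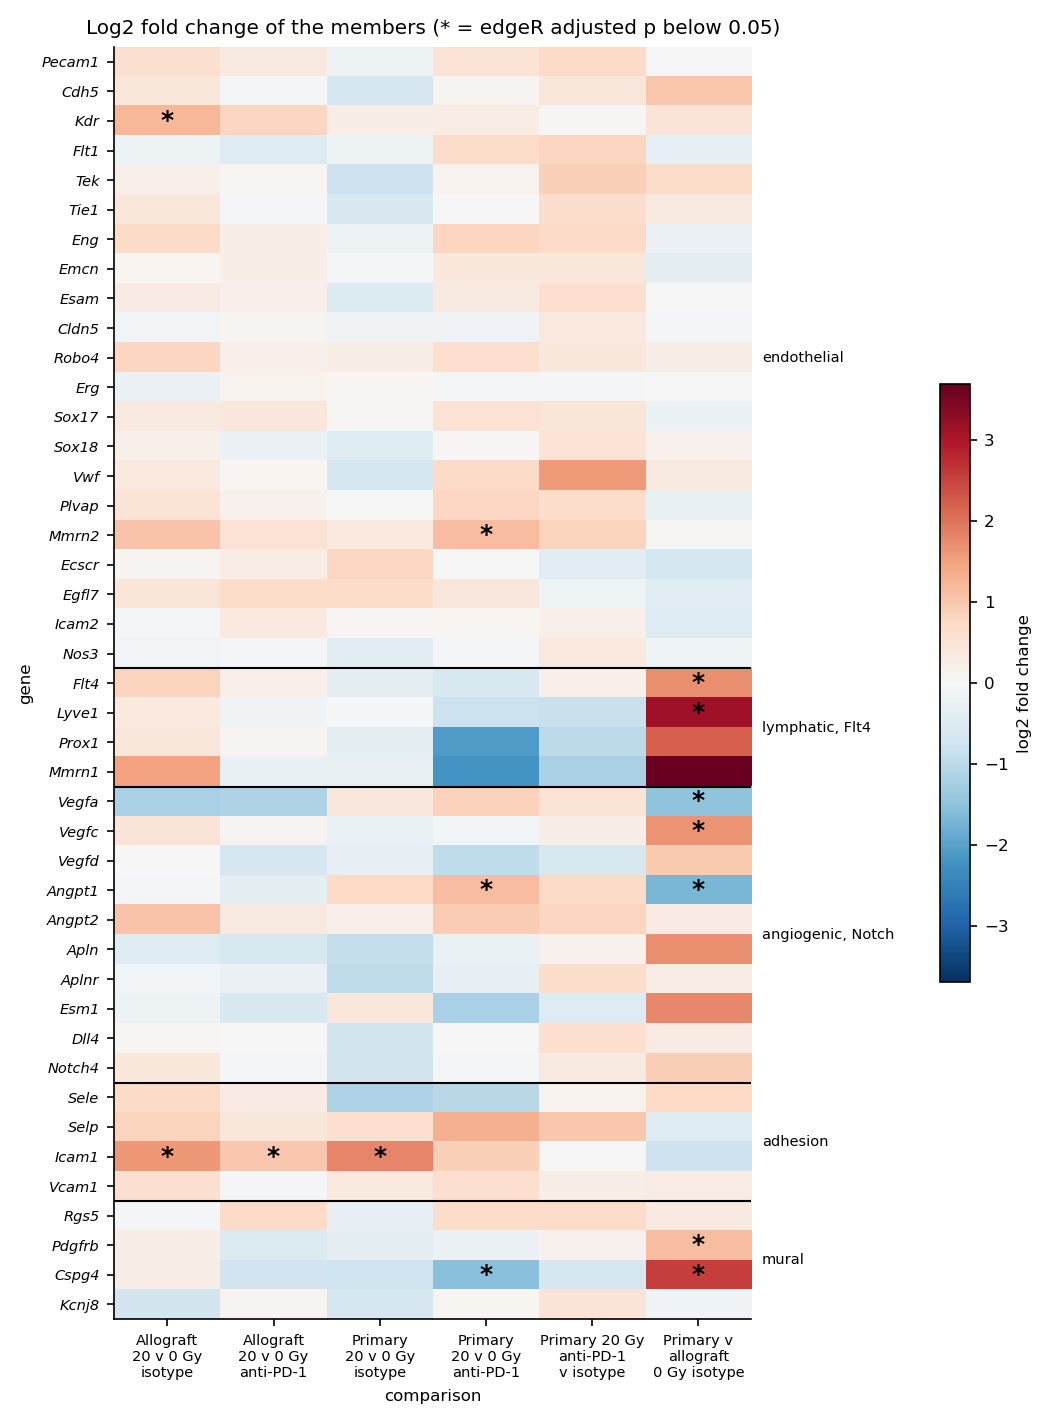
Log2 fold change (colour scale) of each of the 43 genes (rows, by role) in 6 comparisons (columns): 20 Gy against 0 Gy with isotype and with anti-PD-1, for allografts and for primary tumours, anti-PD-1 against isotype at 20 Gy in the primary tumours, and primary tumours against allografts at 0 Gy with isotype. An asterisk marks a call at an adjusted p below 0.05; Icam1 carries one in 3 of the 4 dose columns, and the column of anti-PD-1 against isotype carries none.

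The promoter windows of Icam1 and Kdr are shown because Icam1 was the adhesion gene that was called, and Kdr was, with Mmrn2, 1 of the 2 broad endothelial genes that were. Both windows run from 250 bases before to 50 bases after the RefSeq gene start on GRCm38.p6, 5′ to 3′ on the gene's strand. Icam1 (ENSMUSG00000037405, chr9:21015985-21028817, plus strand) has the window chr9:21015690-21015989, and Kdr (ENSMUSG00000062960, chr5:75932827-75978458, minus strand) has the window chr5:75978406-75978705. Capitals mark matches to GGNNNTTCC on either strand, the core letters bound by NF-kB, a transcription factor of inflammation.
Icam1: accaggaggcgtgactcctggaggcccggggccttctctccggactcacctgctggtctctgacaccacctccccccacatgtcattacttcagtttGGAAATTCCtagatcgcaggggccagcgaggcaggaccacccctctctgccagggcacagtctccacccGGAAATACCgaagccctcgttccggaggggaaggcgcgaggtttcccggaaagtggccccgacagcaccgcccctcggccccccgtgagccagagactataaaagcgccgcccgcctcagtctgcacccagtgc
Kdr: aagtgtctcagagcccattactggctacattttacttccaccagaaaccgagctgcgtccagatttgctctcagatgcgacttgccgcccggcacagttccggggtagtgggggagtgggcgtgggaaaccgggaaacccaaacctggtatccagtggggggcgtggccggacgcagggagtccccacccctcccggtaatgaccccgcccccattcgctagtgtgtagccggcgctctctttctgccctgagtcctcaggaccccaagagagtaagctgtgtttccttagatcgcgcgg
The Icam1 window held the letters at −153 to −145, where they read on both strands, and at −84 to −76, where they read on the minus strand. The Kdr window held neither these letters nor, on either strand, those of the interferon-factor (IRF) motif, searched as GAAA and again GAAA with any 2 bases between them, or of the ETS motif, searched as CAGGAAG. RefSeq windows, 32 in all, were matched for 26 of the 43 genes. A gene counted if any of its windows held the letters, whereas the shares of all promoters count single windows. Of these 26, 7 held GGNNNTTCC (Egfl7, Eng, Icam1, Mmrn1, Notch4, Sele and Selp), as did 18.5% of the 32851 promoters in the table. The IRF letters stood in 2 of the 26 (Mmrn1 and Vegfa) and in 3.4% of all promoters, and the ETS letters in 7 of the 26 (Apln, Egfl7, Emcn, Erg, Notch4, Robo4 and Sele) and in 13.3%. A match describes the letters only and shows no binding.

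Icam1 had higher group medians at 20 Gy than at 0 Gy in both tumour kinds, although the primary groups with anti-PD-1 overlapped and were not called. In the allografts at 0 Gy with isotype the 4 tumours held 53.2, 44.2, 77.3 and 37.6 CPM, and at 20 Gy with isotype they held 154, 155, 149 and 173 CPM. With anti-PD-1 the values were 81.6, 67.7, 111.8 and 69.6 CPM at 0 Gy and 197, 115.03, 156 and 181 CPM at 20 Gy. Every irradiated allograft was above every unirradiated one. The difference was 1.59 ± 0.23 with isotype (edgeR adjusted p 0.00181), 1.01 ± 0.23 with anti-PD-1 (edgeR adjusted p 0.0251) and 1.63 ± 0.23 for the combination against 0 Gy with isotype (edgeR adjusted p 0.00111). The second of these was the least firm: its adjusted p was 0.0825 and 0.0934 without replicate 2 or 4 at 0 Gy and 0.0526 and 0.0623 without replicate 1 or 3 at 20 Gy, and ran from 0.00223 to 0.276 over the settings tried, the highest where all 48 tumours shared a fit. The difference itself stayed between 0.91 and 1.19 with a tumour left out.

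In the primary tumours at 0 Gy with isotype Icam1 ran from 17.6 to 46.6 CPM with a median of 28 CPM, and at 20 Gy with isotype from 63.2 to 192 CPM with a median of 99.9 CPM. With anti-PD-1 it ran from 20.7 to 124.3 CPM (median 51.3) at 0 Gy and from 28.9 to 206 CPM (median 88.2) at 20 Gy. The isotype groups did not overlap, whereas both anti-PD-1 groups spread widely and overlapped. The difference was 1.81 ± 0.34 with isotype (edgeR adjusted p 0.000517) and 1.79 ± 0.34 for the combination against 0 Gy with isotype (edgeR adjusted p 0.000742), and 0.88 ± 0.33 with anti-PD-1 at both doses, which was not called (edgeR adjusted p 0.0985). That last comparison was called without replicate 7 at 0 Gy (adjusted p 0.039) or replicate 5 at 20 Gy (adjusted p 0.0342) and when all 48 tumours shared a fit (adjusted p 0.0463), in a range of 0.0342 to 0.219 over the tumours left out. The dose effect was not shown to depend on the antibody: the interaction was -0.93 ± 0.47 in the primary tumours (edgeR adjusted p 0.971) and -0.59 ± 0.32 in the allografts (edgeR adjusted p 0.864). Nor was it shown to depend on the tumour kind, the difference between primary tumours and allografts, averaged over antibodies, being 0.05 ± 0.36 (edgeR adjusted p 0.985). Exons of the antisense gene Gm47079 cover 11.7% of the Icam1 exons, and whether counting used the strand is not given in the sources used here.

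Some leukocyte genes were called with Icam1 in both comparisons with isotype. Of 7 genes of integrin and selectin partners on leukocytes, Selplg, which encodes the P-selectin ligand PSGL-1, and Itgb2, the shared chain of the ICAM-1-binding integrins, rose at 20 Gy with isotype in the allografts (1.10 ± 0.27 and 1.38 ± 0.35; edgeR adjusted p 0.0277 and 0.0321), 2 of 7 against 5.14% of all genes called. Primary tumours with isotype showed a rise of Selplg (1.29 ± 0.24), Itgb2 (1.25 ± 0.26) and Itgam (0.84 ± 0.26), a chain found on myeloid cells, at edgeR adjusted p of 0.000485, 0.00144 and 0.0304, 3 of 7 against 14.5%. The calls parted with anti-PD-1 at both doses. In the allografts, where Icam1 was called, 0 of the 7 were, and 3 had an unadjusted p below 0.05 against 19.5% of all genes, while in the primary tumours, where Icam1 was not called, Itgb2 (1.30 ± 0.26) and Selplg (1.11 ± 0.24) rose, against 7.92% of all genes called. The combination against 0 Gy with isotype called 3 of the 7 higher among allografts, against 7.43% of all genes, and 4 among primary tumours, against 8.78%. The summed level of 12 leukocyte markers, none at 0 throughout a group, ran from 494.8 to 1029 CPM (median 581.6) in allografts at 0 Gy with isotype and from 1081 to 1359 CPM (median 1323) at 20 Gy with isotype. Among primary tumours it ran from 603.7 to 829.6 CPM (median 714.4) and from 607.4 to 1362 CPM (median 770.3), which overlapped. With anti-PD-1 the doses overlapped in both kinds. Allografts then ran from 423.9 to 1633 CPM at 0 Gy and from 1242 to 1998 CPM at 20 Gy. Primary tumours ran from 473.9 to 987.5 CPM and from 504.5 to 2101 CPM. The part of leukocytes in the Icam1 difference was not tested.

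The other 3 adhesion genes were not called by edgeR in any comparison, and DESeq2 called Selp in the primary combination against 0 Gy with isotype (adjusted p 0.0429), as did edgeR without replicate 1 or 5 at 20 Gy with anti-PD-1 (0.0405 and 0.0473). That Selp difference was 1.62 with all tumours and 1.03 (adjusted p 0.329) without replicate 4 at 20 Gy with anti-PD-1. Vcam1, the gene of the second integrin ligand, had group medians of 134.4, 187, 206 and 205 CPM in the allografts (0 Gy isotype, 0 Gy anti-PD-1, 20 Gy isotype, 20 Gy anti-PD-1) and 170, 143.02, 207 and 235 CPM in the primary tumours. Its difference at 20 Gy with isotype was 0.63 ± 0.27 in the allografts (edgeR adjusted p 0.232) and 0.37 ± 0.31 in the primary tumours (edgeR adjusted p 0.45), with overlapping groups in both kinds. Selp, the gene of P-selectin, had medians of 3.14, 7.65, 7.62 and 9.89 CPM in the allografts and 3.41, 2.36, 3.44 and 7.75 CPM in the primary tumours, where its highest value was 33.3 CPM in 1 tumour at 20 Gy with anti-PD-1. The antisense gene Gm16548 covers 9.9% of the Selp exons.

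Sele, the gene of E-selectin, an adhesion molecule made almost only by activated endothelium, stood apart from Icam1. In the allografts it ran from 1.37 to 3.7 CPM at 0 Gy with isotype and from 3.24 to 3.96 CPM at 20 Gy. Its primary range was 1.7 to 10.3 CPM (median 2.78) at 0 Gy with isotype and 0.695 to 4.97 CPM (median 1.38) at 20 Gy. Allografts thus had a positive and primary tumours a negative dose difference, 0.70 ± 0.33 and -1.13 ± 0.44 with isotype, neither of them called (edgeR adjusted p 0.286 and 0.0829). The primary difference was called with the Xist covariate (adjusted p 0.0294), with a covariate for the first digit of the number in the sample title (0.0308), with all 48 tumours in a fit (0.0363) and without replicate 2 at 20 Gy (0.015), and was -0.70 (adjusted p 0.296) without replicate 1 at 0 Gy. The difference between the kinds, averaged over antibodies, was -1.56 ± 0.48 and was not called by edgeR (adjusted p 0.228), whereas limma-voom called it and DESeq2 did not (adjusted p 0.0383 to 0.32 over the settings tried).

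**Figure D2:**
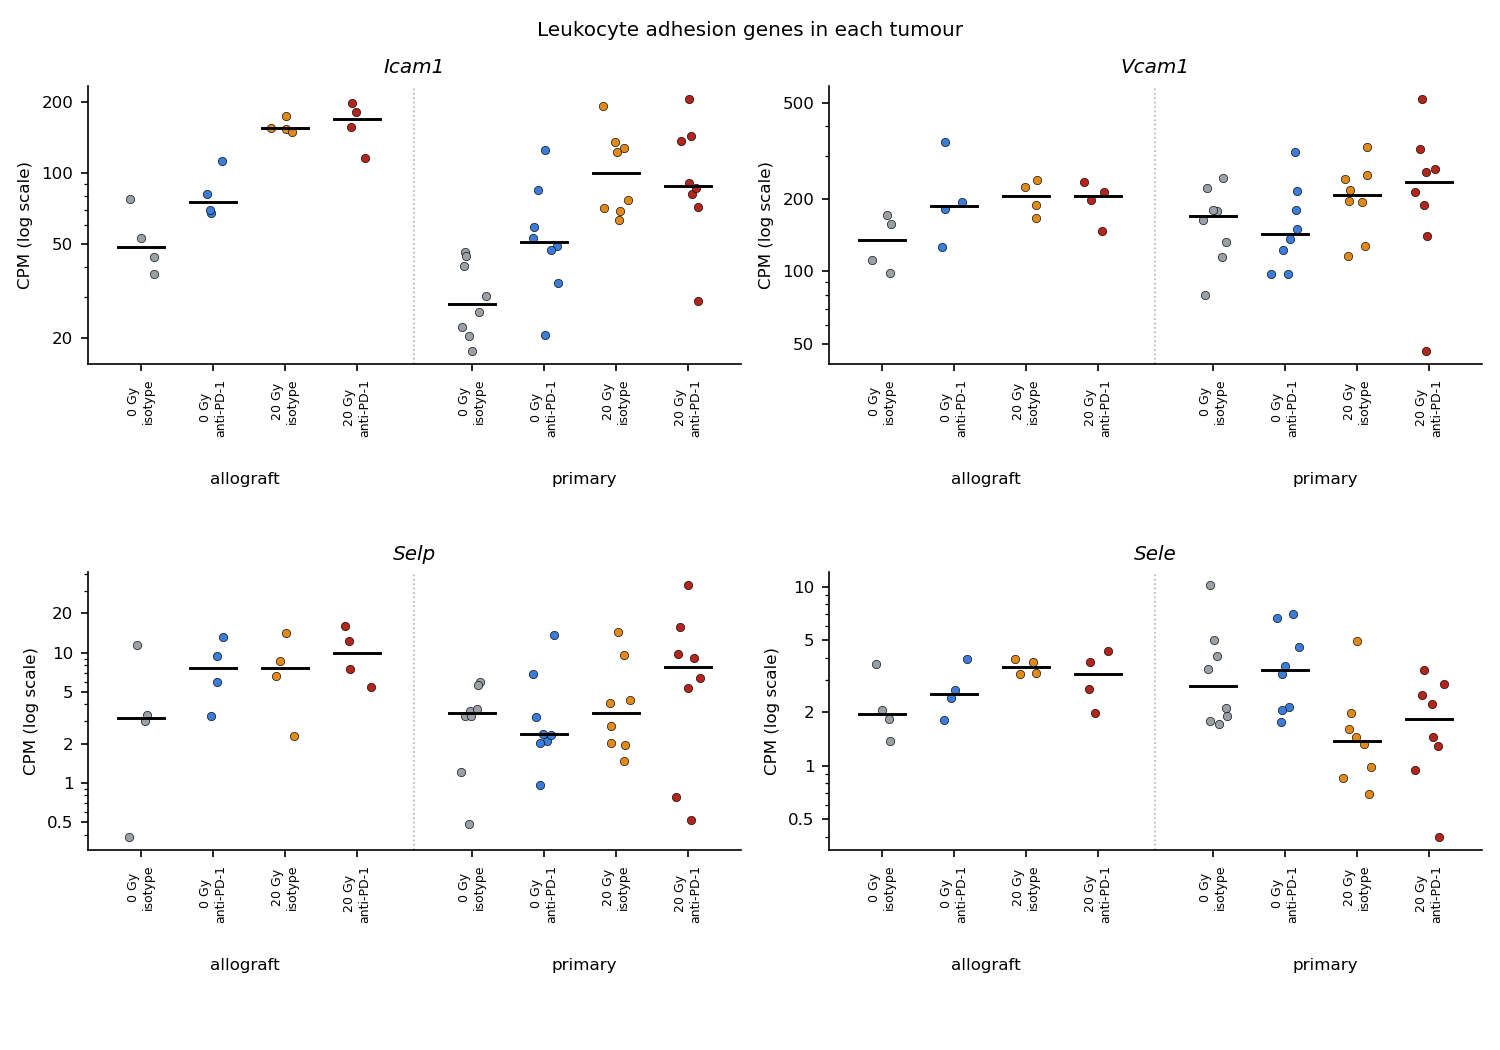
CPM on a log axis of Icam1, Vcam1, Selp and Sele in each of the 48 tumours, allografts left and primary tumours right within a panel, coloured by dose and antibody, with a black line at each group median. Icam1 is the gene whose irradiated isotype groups lie wholly above the unirradiated ones in both kinds (149 to 173 against 37.6 to 77.3 CPM and 63.2 to 192 against 17.6 to 46.6 CPM).

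Among the 21 broad endothelial genes Kdr, which encodes VEGFR-2, the main signalling receptor for VEGF-A, rose after radiation in the allografts. The 4 allografts at 0 Gy with isotype held 24.9, 31.5, 42.9 and 23.2 CPM, and those at 20 Gy held 54.3, 61.6, 75.9 and 87.7 CPM. The groups did not overlap. The difference was 1.22 ± 0.28 (edgeR adjusted p 0.0204). With anti-PD-1 the values were 24.4, 33.1, 40.7 and 36.4 CPM at 0 Gy and 57.3, 39, 43.3 and 88.3 CPM at 20 Gy, which overlapped, and the difference of 0.80 ± 0.28 was not called (edgeR adjusted p 0.12) and was 0.48 without replicate 4 at 20 Gy. The combination against 0 Gy with isotype was called at 0.92 ± 0.28 (edgeR adjusted p 0.0477).

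Both Kdr calls lay near the threshold and were lost in part of the alternatives, in which the difference kept its sign and, with 1 exception, most of its size. With isotype it was 1.12 to 1.22 over the settings and 1.09 to 1.43 with a tumour left out, and for the combination 0.81 to 0.96 and 0.60 to 1.13, the 0.60 without replicate 4 at 20 Gy with anti-PD-1. In the comparison with isotype its adjusted p was 0.0798, 0.0581 and 0.071 without replicate 1, 2 or 4 at 0 Gy and 0.0684 without replicate 4 at 20 Gy, and 0.0979 when all 48 tumours shared a fit. It was 0.123 with a covariate for the first digit of the number in the sample title, which was 5 in 4 of 4 unirradiated and 1 of 4 irradiated tumours. With one for Xist, above 10 CPM in 1 of 4 unirradiated and 3 of 4 irradiated tumours, it was 0.0671. Over the settings tried it ran from 0.00131 to 0.123. For the combination it was 0.149, 0.0814 and 0.106 without replicate 1, 2 or 4 at 0 Gy with isotype, and 0.0647 and 0.119 without replicate 1 or 4 at 20 Gy with anti-PD-1. It was 0.0638 with the digit, 0.123 with Xist, 0.0559 with the muscle level and 0.193 with all 48 tumours, in a range of 0.0161 to 0.193 over the settings. Primary tumours had Kdr medians of 37.6 and 46.3 CPM at 0 and 20 Gy with isotype, and ranges of 23.3 to 69.3 and 28.6 to 77.2 CPM that lay over each other. The difference was 0.23 ± 0.29 (edgeR adjusted p 0.62), and that between the tumour kinds, averaged over antibodies, was -0.74 ± 0.32 and not called (edgeR adjusted p 0.503).

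Mmrn2, the gene of an endothelial matrix protein also known as EndoGlyx-1, rose in irradiated primary tumours that had received anti-PD-1. It ran from 13.7 to 38 CPM (median 21.9) at 0 Gy with anti-PD-1 and from 16.4 to 107.2 CPM (median 44.9) at 20 Gy with anti-PD-1. At 0 and 20 Gy with isotype it ran from 11.8 to 39 CPM (median 21.8) and from 18.8 to 45.4 CPM (median 23.2). The high values stood in part of the tumours that received both treatments, and the ranges of all 4 groups overlapped. The difference was 1.16 ± 0.32 with anti-PD-1 at both doses (edgeR adjusted p 0.022) and 1.18 ± 0.32 for the combination against 0 Gy with isotype (edgeR adjusted p 0.0121), but 0.35 ± 0.31 with isotype (edgeR adjusted p 0.47). The interaction of dose with antibody, 0.80 ± 0.44, was not called (edgeR adjusted p 0.971). Without replicate 4 at 20 Gy with anti-PD-1 the first difference was 0.89 at an adjusted p of 0.0794, the highest over the tumours left out (lowest 0.00712). In the allografts Mmrn2 read 17.4, 19.1, 35.6 and 16.3 CPM at 0 Gy and 23.3, 48.4, 57.4 and 52.6 CPM at 20 Gy with isotype, a difference of 1.06 ± 0.33 that edgeR did not call (adjusted p 0.077) and DESeq2 did (adjusted p 0.0319 to 0.257 over the settings tried), as did edgeR without replicate 3 at 0 Gy (0.0154) or replicate 1 at 20 Gy (0.0354). Without that replicate 3 the allograft combination was called too (0.0334). Mmrn2 (ENSMUSG00000041445) lies at chr14:34375465-34404287.

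The other 19 broad endothelial genes were not called by edgeR at 20 Gy in either kind. In the allografts with isotype 16 of the 21 had a positive difference and the median was 0.34 (0.19 without replicate 3 at 20 Gy and 0.56 without replicate 3 at 0 Gy), where the median of all genes tested was -0.001909. Among them were Robo4, an endothelial guidance receptor (0.79 ± 0.25), Eng, a TGF-beta co-receptor (0.72 ± 0.28), and Pecam1 (0.60 ± 0.26), with edgeR adjusted p of 0.0839, 0.167 and 0.228. DESeq2 called Robo4 there (adjusted p 0.0478 to 0.368 over the settings tried), as did edgeR without replicate 3 at 0 Gy (0.0327) or replicate 1 at 20 Gy (0.0205), and edgeR called Eng without replicate 3 at 0 Gy (0.0345). Over the 6 comparisons of irradiated with unirradiated groups the Xist covariate or a left-out tumour also brought calls of Egfl7, Pecam1, Ecscr, Flt1, Plvap and Robo4, at adjusted p of 0.0185 to 0.0497. Such calls were followed only for genes with an unadjusted p below 0.05 in the main fit. With anti-PD-1 at both doses 16 of the 21 were positive with a median of 0.178 (0.06 and 0.32 without replicate 2 or 3 at 0 Gy). Among the same genes in primary tumours with isotype 9 of 21 were positive and the median was -0.143, a sign that turned without replicate 7 at 0 Gy (0.1). With anti-PD-1 17 of 21 were positive and the median was 0.338 (0.21 without replicate 4 at 20 Gy and 0.46 without replicate 2 at 0 Gy). Cdh5, which measures VE-cadherin transcripts, had a wide spread in the primary tumours with isotype: 69.2 to 349 CPM at 0 Gy and 40 to 405 CPM at 20 Gy. The 405 CPM stood in 1 tumour, replicate 7, and the next irradiated tumour held 101.8 CPM. The allografts with isotype ran from 61.5 to 118.8 and from 59.2 to 138.8 CPM.

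The remaining broad endothelial genes had the following group medians over the 8 groups. Of the surface and junction proteins Esam ran between 30.5 and 51.0 CPM, Cldn5, a tight-junction claudin, between 22.9 and 28.9 CPM, Emcn, the sialomucin endomucin, between 24.8 and 35.7 CPM and Icam2, an integrin ligand that resting endothelium carries, between 8.43 and 15.95 CPM. The transcription factors Erg, Sox17 and Sox18 ran between 15.2 and 20.1, 4.81 and 8.80, and 23.0 and 30.2 CPM. Nos3, the endothelial nitric oxide synthase, ran between 10.4 and 18.9 CPM. Single tumours spread wider than these medians, as for Cldn5 in primary tumours at 20 Gy with isotype, 4.28 to 39.6 CPM. Antisense genes cover 25.2% of the Nos3 exons and 16.8% of the Sox17 exons. Egfl7, a matrix factor secreted by endothelium, had the smallest p of the 21 in primary tumours with isotype, where it ran from 15.5 to 36.3 CPM (median 21.2) at 0 Gy and from 13.8 to 57.8 CPM (median 38.6) at 20 Gy. The groups overlapped and the difference of 0.68 ± 0.26 was not called (edgeR adjusted p 0.0754), though it was with all 48 tumours in a fit (0.0452) and without replicate 7 at 0 Gy (0.0344) or replicate 2 or 8 at 20 Gy (0.0362 and 0.0209).

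In a list of 35 further endothelial genes that are not among the 43, 3 rose in the allografts at 20 Gy with isotype, against 4.4% of all genes: Gja4, a gap-junction gene of arterial endothelium (1.31 ± 0.27), Acvrl1, the receptor ALK1 (0.95 ± 0.23), and Lmo2, a transcription cofactor of endothelium and blood cells (1.12 ± 0.27). Of the same 35, 5 fell and 1 rose in the primary tumours with isotype, against 6.64% of all genes lower and 7.85% higher. Those with the smallest p were Cd34, a sialomucin of endothelium and of many stromal cells (-1.30 ± 0.24, edgeR adjusted p 0.000485), Efnb2, the arterial ephrin-B2 gene (-0.87 ± 0.21, edgeR adjusted p 0.00461), Ets1, a transcription factor (-0.60 ± 0.17, edgeR adjusted p 0.0189), and Lmo2, which rose (0.86 ± 0.26, edgeR adjusted p 0.0239). Cd34 fell from 396.5 to 1169 CPM at 0 Gy to 147.2 to 493.8 CPM at 20 Gy with isotype and was also called with anti-PD-1 at both doses (-1.04 ± 0.24, edgeR adjusted p 0.00758), where Sema3g, an endothelial semaphorin, rose (1.44 ± 0.45), against 7.92% of all genes called. With anti-PD-1 at both doses 1 of the 35, Lmo2, was called in the allografts (1.20 ± 0.27), against 3.96%. The combination against 0 Gy with isotype called 3 higher in the allografts, Lmo2, Acvrl1 and Gja4 again, against 7.43% of all genes higher. In the primary tumours, against 13.8% of all genes called, it called Bmx (1.25 ± 0.42), Gja5 (1.49 ± 0.51) and Stab2 (1.73 ± 0.59) higher and Cd34 lower (-1.43 ± 0.24).

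Skeletal muscle transcripts varied widely beside these values. The summed level of 12 muscle markers ran from 72.64 to 6804 CPM (median 2011) in primary tumours at 0 Gy with isotype. With anti-PD-1 it ran from 86.08 to 8499 CPM (median 1633) at 0 Gy and from 16.62 to 88230 CPM (median 2149) at 20 Gy. With anti-PD-1 at both doses all 12 had a positive dose difference in the primary tumours (median 2.78). Of them 9 had an unadjusted p below 0.05, against 23.6% of all genes, and 0 were called by edgeR. Muscle carries its own capillaries. In a fit that held the muscle level as a covariate Mmrn2 and Angpt1 stayed called in both primary comparisons that named them, and Kdr in the allograft combination had the same difference of 0.92 at an adjusted p of 0.0559. That fit does not separate vessels of muscle from those of tumour, and their part in these differences was not tested.

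The angiogenic ligands did not move as 1 group. Angpt1, which encodes the TIE2 agonist angiopoietin-1, a product of mural and stromal cells, rose in irradiated primary tumours with anti-PD-1. It ran from 7.1 to 29.3 CPM (median 9.48) at 0 Gy and from 10.1 to 43.8 CPM (median 26) at 20 Gy with anti-PD-1, and from 4.92 to 17.6 CPM (median 9.66) and 11 to 23.5 CPM (median 16.2) at 0 and 20 Gy with isotype. Irradiated tumours were mostly higher, with overlap in every pair of groups. The difference was 1.15 ± 0.32 with anti-PD-1 (edgeR adjusted p 0.0243), 1.44 ± 0.32 for the combination against 0 Gy with isotype (edgeR adjusted p 0.00315) and 0.75 ± 0.32 with isotype, which was not called (edgeR adjusted p 0.114). The first of these had an adjusted p of 0.0532 without replicate 6 at 0 Gy with anti-PD-1, and of 0.0507 and 0.0518 without replicate 7 or 8 at 20 Gy with anti-PD-1, in a range of 0.00348 to 0.0532 over the tumours left out, while its difference stayed between 1.019 and 1.458.

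In the allografts Angpt1 read 34.2, 35.6, 32.5 and 27 CPM at 0 Gy and 25.3, 32.1, 29.8 and 36 CPM at 20 Gy with isotype, and 28.3, 33, 36.1 and 32.9 CPM and 24.6, 20.5, 18.3 and 34.9 CPM with anti-PD-1. The levels at the 2 doses overlapped with either antibody, with differences of -0.04 ± 0.19 and -0.37 ± 0.19 (edgeR adjusted p 0.942 and 0.298). With anti-PD-1 the overlap came through replicate 4 at 20 Gy (34.9 CPM) alone. The dose difference in primary tumours exceeded that in allografts by 1.17 ± 0.34 averaged over antibodies, which edgeR did not call (adjusted p 0.191) and limma-voom did (adjusted p 0.00739 to 0.391 over the settings tried). Angpt1 (ENSMUSG00000022309) lies at chr15:42424723-42676977, and the antisense gene Gm17473 covers 14.2% of its exons.

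Vegfa, the gene of the main blood-vessel growth factor, had dose differences of opposite sign in the tumour kinds, none of them called by edgeR in the main fit. The allografts held 370, 305, 176 and 201 CPM at 0 Gy and 124.08, 113.98, 83.9 and 123.06 CPM at 20 Gy with isotype, so all irradiated tumours were below all unirradiated ones. With anti-PD-1 they held 206, 105.2, 118.01 and 432 CPM at 0 Gy and 103.95, 29.4, 96 and 152 CPM at 20 Gy, with overlap. The differences of -1.21 ± 0.47 and -1.14 ± 0.47 were not called (edgeR adjusted p 0.178 and 0.198), and the second was -0.58 without replicate 4 at 0 Gy with anti-PD-1. Not called either was the combination against 0 Gy with isotype, -1.44 ± 0.48 (edgeR adjusted p 0.0718), which DESeq2 called (adjusted p 0.0208 to 0.148 over the settings tried), as did edgeR without replicate 4 at 20 Gy with anti-PD-1 (0.0354).

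Vegfa in the primary tumours had medians of 76.3 and 89.1 CPM at 0 and 20 Gy with isotype and of 79.9 and 99.5 CPM with anti-PD-1, and the ranges overlapped. The differences were 0.39 ± 0.40 and 0.86 ± 0.40 (edgeR adjusted p 0.549 and 0.193), the second being 0.56 without replicate 5 at 20 Gy with anti-PD-1. The first includes replicate 3 at 20 Gy with isotype, which held 287 CPM where the next irradiated tumour held 183 CPM. Averaged over antibodies, the dose difference of primary tumours exceeded that of allografts by 1.81 ± 0.48. This was the smallest p among the 43 genes in that comparison and was not called by edgeR (adjusted p 0.156), while DESeq2 and limma-voom called it (adjusted p 0.0332 to 0.356 over the settings tried). With edgeR 0 of the 43 genes were called in the difference between kinds with isotype (against 0.00517% of all genes), with anti-PD-1 (against 0%) and averaged over antibodies (against 0.0259%). At an unadjusted p below 0.05 there were 5, 3 and 5 of the 43, against 9.9%, 4.77% and 8.56% of all genes.

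Angpt2, the gene of the TIE2 antagonist angiopoietin-2 that activated endothelium stores, read 10.4, 12.1, 11.4 and 6.4 CPM at 0 Gy and 12.2, 13, 31.8 and 25.5 CPM at 20 Gy with isotype in the allografts. All irradiated values were above all unirradiated ones. The difference of 1.06 ± 0.30 missed the threshold with edgeR (adjusted p 0.0561) and passed it with DESeq2 (adjusted p 0.0173 to 0.321 over the settings tried) and without replicate 1 or 2 at 20 Gy (0.0331 and 0.0386). For primary tumours the difference was 0.18 ± 0.35 with isotype and 0.95 ± 0.35 with anti-PD-1 (edgeR adjusted p 0.768 and 0.0914). That with anti-PD-1 was called with all 48 tumours in a fit (adjusted p 0.0479) and without replicate 1 at 20 Gy (0.0359), and the primary combination was called by DESeq2 (adjusted p 0.0301), with median-of-ratios scaling (0.0487), with all 48 tumours in a fit (0.0303) and in 5 of the 16 fits with a tumour left out (0.0213 to 0.0481).

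The other 7 angiogenic and Notch genes were not called at 20 Gy by edgeR as fitted within a tumour kind or by DESeq2. Apln, the gene of the peptide apelin, had a negative difference in all 4 dose comparisons, from -0.87 ± 0.38 in primary tumours with isotype to -0.25 ± 0.38 with anti-PD-1, and in the allografts its irradiated tumours lay below the unirradiated ones with either antibody. Without replicate 4 at 0 Gy the primary difference with isotype was -0.47 (adjusted p 0.393) and the allograft difference with anti-PD-1, -0.60 with all tumours, was -0.28. Dll4, a Notch ligand of sprouting tip cells, and Aplnr, the apelin receptor, had differences of -0.68 ± 0.26 and -0.94 ± 0.39 in primary tumours with isotype (edgeR adjusted p 0.0836 and 0.101). Dll4 was called there with all 48 tumours in a fit (0.0434) and without replicate 3 at 20 Gy (0.0314), and was -0.39 (adjusted p 0.3) without replicate 7 at 0 Gy, and Aplnr was called with the muscle covariate (0.0428). Vegfd, the gene of a VEGFR-3 ligand, was called lower in the fit of all 48 tumours, in primary tumours with anti-PD-1 (-0.95, adjusted p 0.0467) and in the combination (-0.88, adjusted p 0.0465), and with 1 tumour left out in each (0.0426 and 0.0457). Esm1, a tip-cell product, ranged most widely, from 3.29 to 150 CPM among primary tumours at 0 Gy with isotype. Of 12 further angiogenic factors 2 rose in the allografts at 20 Gy with isotype, against 4.4% of all genes, Pdgfb, the pericyte-recruiting platelet-derived growth factor (0.75 ± 0.18), and Angptl4, an inhibitor of lipoprotein lipase (0.85 ± 0.21). Angptl4 also rose in the primary tumours with isotype (0.85 ± 0.29) and with anti-PD-1 (0.94 ± 0.29), against 7.85% and 6.06% of all genes.

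**Figure D3:**
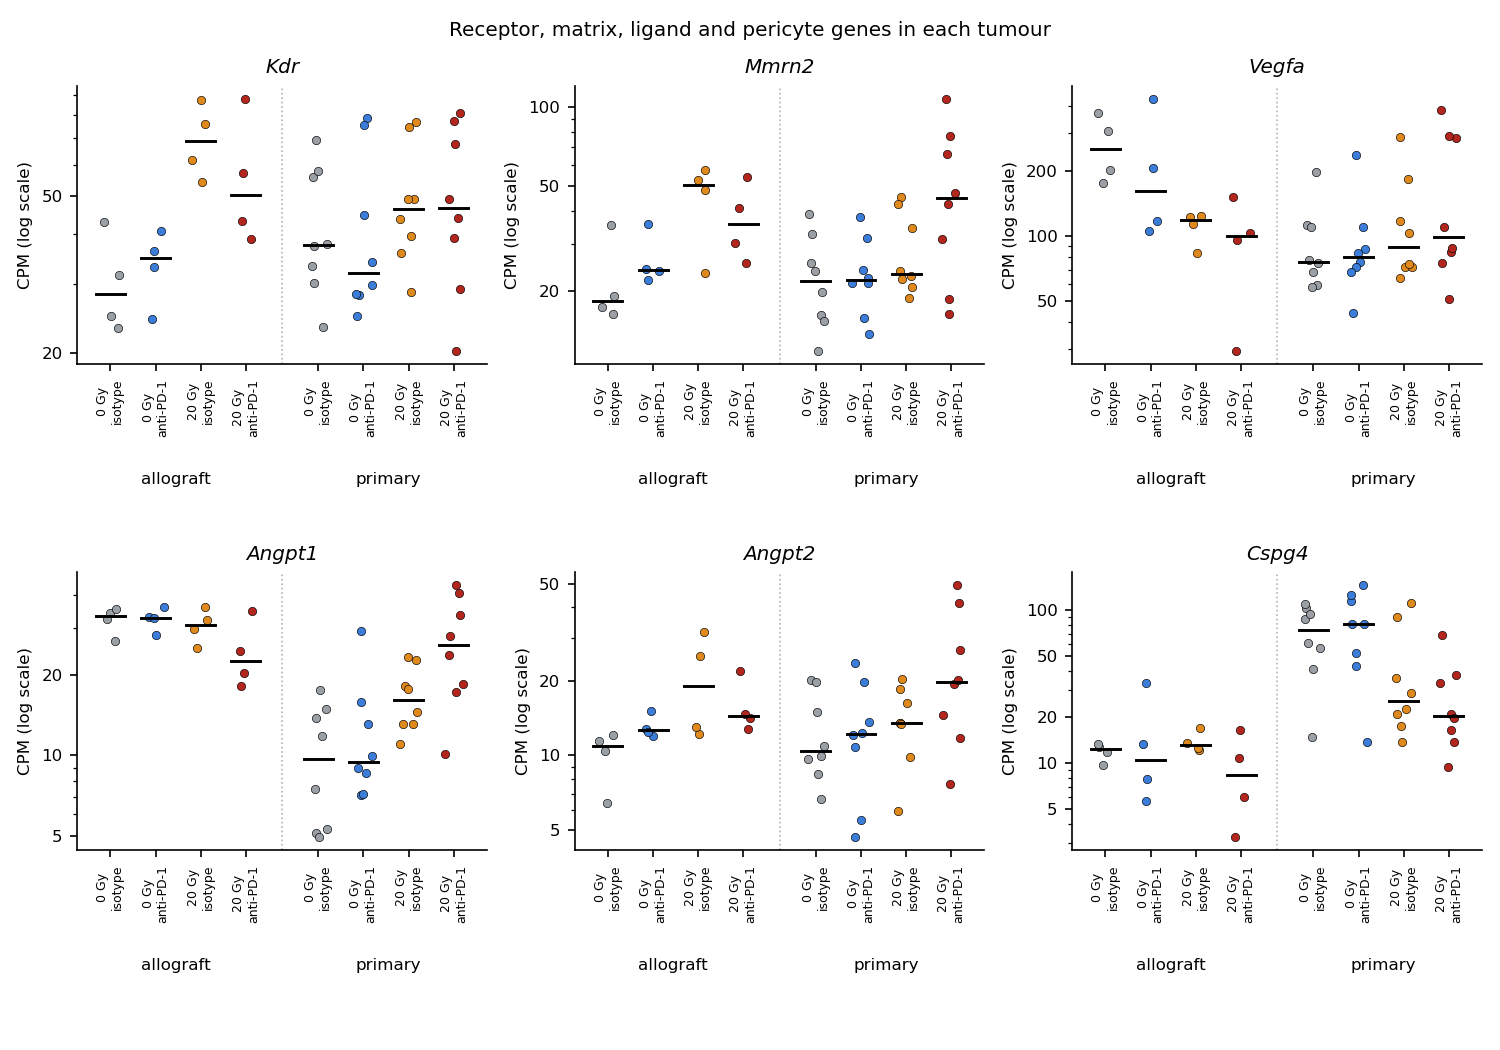
CPM on a log axis of Kdr, Mmrn2, Vegfa, Angpt1, Angpt2 and Cspg4 in each tumour, arranged and coloured by tumour kind, dose and antibody, with a black line at the group median. Kdr in irradiated isotype allografts (54.3 to 87.7 CPM) lies above the unirradiated ones (23.2 to 42.9 CPM), and Cspg4 in primary tumours has lower medians at 20 Gy (25.6 and 20.3 CPM) than at 0 Gy (73.8 and 81 CPM).

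Of the 4 mural genes Cspg4, which encodes the pericyte proteoglycan NG2 and is also expressed by tumour and stromal cells, fell at 20 Gy with anti-PD-1 in the primary tumours. It ran from 13.6 to 146 CPM (median 81) at 0 Gy and from 9.39 to 68.6 CPM (median 20.3) at 20 Gy with anti-PD-1. With isotype it ran from 14.7 to 110 CPM (median 73.8) and from 13.8 to 110.7 CPM (median 25.6). Low and high tumours stood in all 4 groups. The difference was -1.54 ± 0.47 with anti-PD-1 (edgeR adjusted p 0.0394), -1.35 ± 0.47 for the combination (edgeR adjusted p 0.0523) and -0.73 ± 0.46 with isotype (edgeR adjusted p 0.301). The call with anti-PD-1 was lost without the filter on low counts (adjusted p 0.0578), with the digit covariate (adjusted p 0.0573) and without any of replicates 1, 2, 3, 5 and 7 at 0 Gy or 1, 3, 4, 6 and 7 at 20 Gy, with an adjusted p of 0.0147 to 0.0827 over the 16 tumours left out in turn. The difference stayed between -1.66 and -1.45 over the settings and between -1.87 and -1.37 over the tumours left out. The combination, which missed the threshold, was called by DESeq2 (adjusted p 0.0343), with the digit (0.0476) or Xist (0.0367) as a covariate and with all 48 tumours in a fit (0.0281), in a range of 0.0281 to 0.0784 over the settings, and without replicate 4 at 0 Gy (0.0286) or replicate 2 or 5 at 20 Gy (0.0185 and 0.0498).

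Pdgfrb, the receptor through which PDGF-B recruits pericytes, Rgs5, a signalling regulator of pericytes, and Kcnj8, a pericyte potassium channel, were not called at 20 Gy. Their differences in the primary tumours with isotype were -0.37 ± 0.34, -0.29 ± 0.48 and -0.62 ± 0.39. The Kcnj8 value includes replicate 3 at 20 Gy, which held 26.94 CPM where the next irradiated tumour held 7.835 CPM. Of 10 further mural and smooth-muscle genes only Acta2, smooth-muscle actin, was called in a dose comparison, falling in the primary combination against 0 Gy with isotype (-1.69 ± 0.56, edgeR adjusted p 0.0423), where 4.98% of all genes were called lower.

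The 4 lymphatic genes were not called in any dose comparison with all tumours of its groups. They were Flt4, which encodes VEGFR-3, Lyve1, the hyaluronan receptor of lymphatic endothelium and of some macrophages, Prox1, the transcription factor that specifies lymphatic identity, and Mmrn1, a secreted multimerin also made by platelets. In the allografts Flt4 read 11.1, 10.5, 15.3 and 8.42 CPM at 0 Gy and 16.5, 18, 21.4 and 22.8 CPM at 20 Gy with isotype. The groups did not overlap, but the difference of 0.82 ± 0.28 was not called (edgeR adjusted p 0.108), except without replicate 3 at 0 Gy (1.01, adjusted p 0.0485). In the primary tumours all 4 genes had negative differences with isotype (median -0.298) and with anti-PD-1 (median -1.44). The first median rested on 1 tumour, as it was 0.27 without replicate 2 at 0 Gy. Prox1 and Mmrn1 had the most negative values with anti-PD-1, -2.09 ± 0.97 and -2.21 ± 0.98 (edgeR adjusted p 0.187 and 0.168). The second was smaller without 1 tumour: without replicate 7 at 0 Gy with anti-PD-1, which held 24.5 CPM of Prox1 and 61.3 CPM of Mmrn1, the median of the 4 genes was -0.84 and the differences of Prox1 and Mmrn1 were -0.95 and -1.23. With the digit covariate these were -1.14 and -1.40.

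Without treatment the lymphatic genes had the largest median difference between tumour kinds among the 5 role groups, 2.67, higher in the primary tumours. Primary tumours against allografts at 0 Gy with isotype (8 against 4) called 7 of the 43 genes, against 10% of all genes tested (6.03% higher and 3.99% lower), with 5 higher and 2 lower in the primary tumours. Since 1 cell line gave all allografts, line and transplantation cannot be told apart. The called genes were Flt4, Lyve1, Vegfc, Cspg4 and Pdgfrb, all higher, and Vegfa and Angpt1, both lower. None of the 21 broad endothelial genes was called by edgeR, 2 had an unadjusted p below 0.05, against 26.1% of all genes, and their median difference was -0.0251 (-0.25 without primary replicate 7 and 0.09 without primary replicate 4). Ecscr was called without primary replicate 1 (-0.82, adjusted p 0.0228).

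Lyve1 (ENSMUSG00000030787, chr7:110850607-110863239) read 1.1, 2.89, 5.25 and 1.91 CPM in the 4 allografts and from 7.18 to 45.2 CPM (median 24.8) in the primary tumours. Every primary tumour was above every allograft, a difference of 3.13 ± 0.62 (edgeR adjusted p 0.00868). Flt4 (ENSMUSG00000020357, chr11:49609263-49652739) ran from 12.8 to 60.8 CPM (median 38.1) in the primary tumours, the lowest of which lay within the allograft range of 8.42 to 15.3 CPM, and differed by 1.71 ± 0.36 (edgeR adjusted p 0.0103). Vegfc (ENSMUSG00000031520, chr8:54077606-54187096), the gene of the VEGFR-3 ligand, ran from 16.4 to 69.7 CPM (median 22.4) in the primary tumours and from 7.88 to 11.1 CPM in the allografts, without overlap. The difference was 1.66 ± 0.38 (edgeR adjusted p 0.0163), and it was 1.59 and 1.60 at an adjusted p of 0.0648 and 0.0603 without allograft replicate 2 or 4 and at least 0.00718 over the tumours left out.

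Prox1 and Mmrn1 had high values in part of the primary tumours only. Prox1 read 0.286, 0.319, 1.55 and 0.363 CPM in the allografts and from 0 to 12.7 CPM (median 1.41) in the primary tumours, and differed by 2.21 ± 1.24 (edgeR adjusted p 0.281). The 12.7 CPM stood in primary replicate 2, and the next primary tumour held 5.454 CPM. Mmrn1 read 0.501, 0.0683, 1.86 and 0.159 CPM in the allografts and from 0.37 to 31 CPM (median 4.91) in the primary tumours, and differed by 3.66 ± 1.30 (edgeR adjusted p 0.0941), which DESeq2 called (adjusted p 0.0115 to 0.178 over the settings tried). In both genes the ranges of the kinds overlapped.

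**Figure D4:**
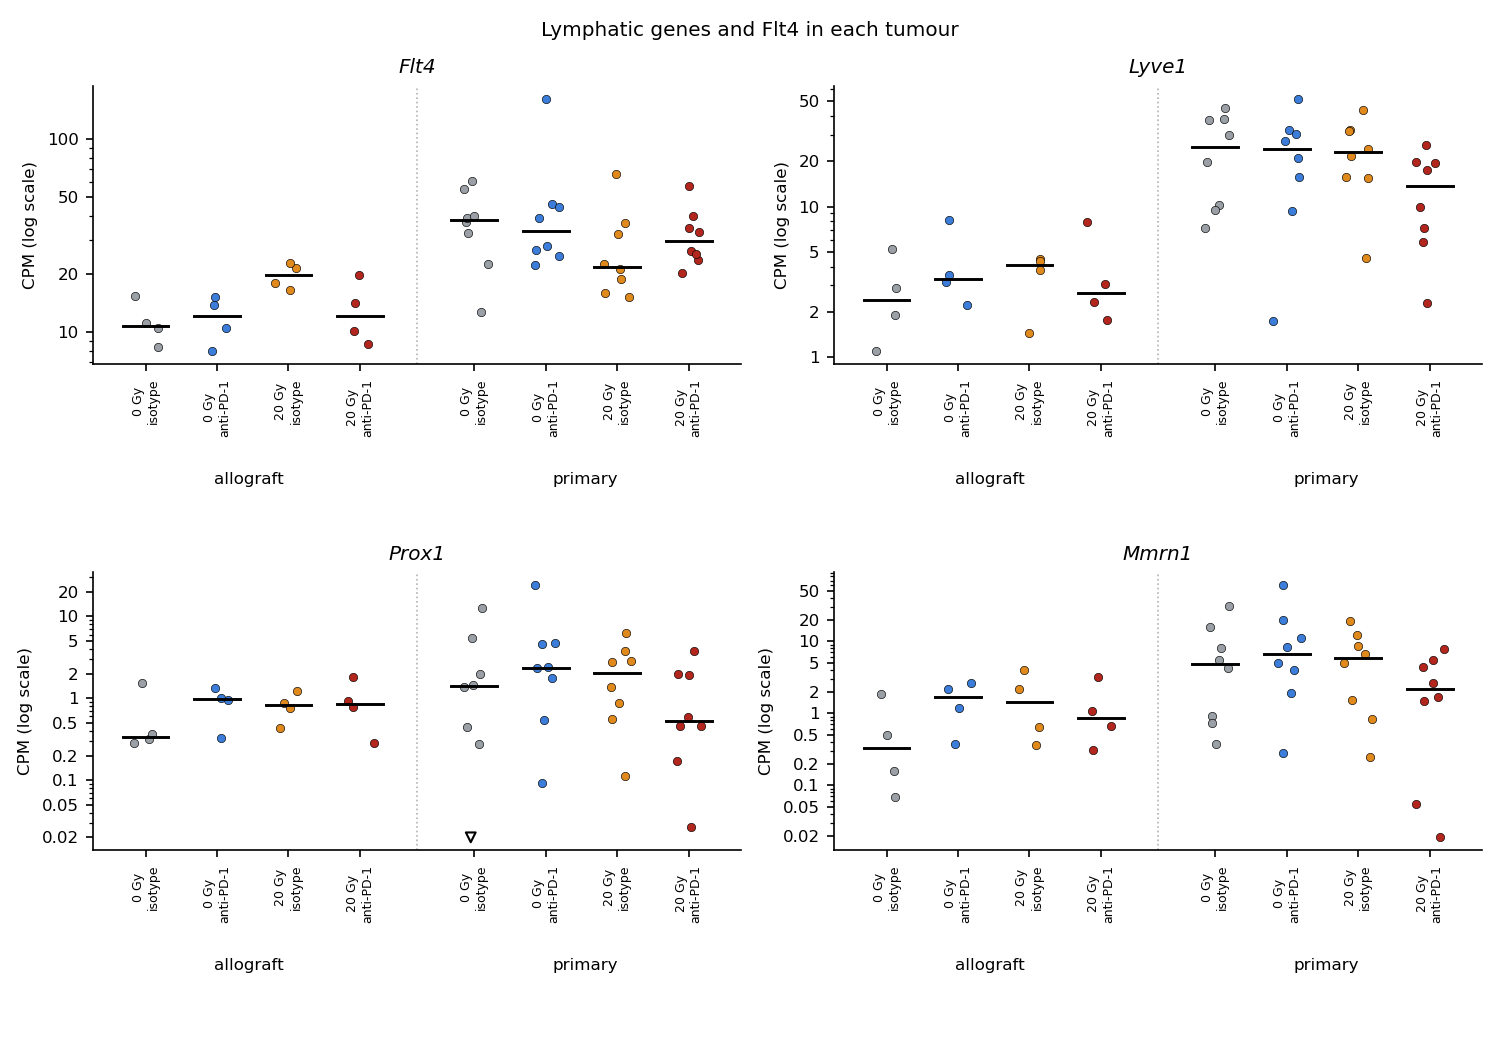
CPM on a log axis of Flt4, Lyve1, Prox1 and Mmrn1 in each tumour, arranged and coloured by tumour kind, dose and antibody, with a black line at the group median and an open triangle where Prox1 was at 0. At 0 Gy with isotype all primary tumours (7.18 to 45.2 CPM) lie above all allografts (1.1 to 5.25 CPM) for Lyve1, while Prox1 ran from 0 to 12.7 CPM and Mmrn1 from 0.37 to 31 CPM among those primary tumours.

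The angiogenic ligands differed in both directions at baseline. Vegfa (ENSMUSG00000023951, chr17:46016993-46032369) ran from 58.4 to 199 CPM (median 76.3) in the primary tumours and from 176 to 370 CPM in the allografts, with overlap through the highest primary tumour, a difference of -1.48 ± 0.31 (edgeR adjusted p 0.0115). Angpt1 ran from 4.92 to 17.6 CPM in the primary tumours and from 27 to 35.6 CPM in the allografts, without overlap, a difference of -1.68 ± 0.34 (edgeR adjusted p 0.00933). Vegfa and Angpt1 were thus higher in the allografts and Vegfc lower, while Angpt2, the other TIE2 ligand, was not called, at means of 2.73 CPM per kb of exon in allografts and 3.41 in primary tumours. Apln (1.71 ± 0.52, edgeR adjusted p 0.057) and Vegfd, the gene of the other VEGFR-3 ligand (0.96 ± 0.34, edgeR adjusted p 0.0936), were not called by edgeR and were called by DESeq2 (adjusted p 0.00777 to 0.122 and 0.0469 to 0.151 over the settings tried). Apln was also called by edgeR with all 48 tumours in a fit (0.00979) and without primary replicate 4 (0.05 after rounding) or 6 (0.0215), and Notch4 without primary replicate 4 (0.0308). Per kilobase of exon Vegfa had the highest mean of the 43 genes in these allografts, 61.3 CPM per kb, ahead of Plvap, the gene of the diaphragm protein of fenestrated endothelium, at 50.3. Among primary tumours Cdh5 (41.8 CPM per kb) and Plvap (41.6) were highest and Vegfa had 22.2. The lowest gene of both kinds was Prox1, with 0.075 CPM per kb in allografts and 0.353 in primary tumours.

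Of the mural genes Cspg4 (ENSMUSG00000032911, chr9:56865033-56899870) read 12.7, 9.65, 13.2 and 11.8 CPM in the allografts and from 14.7 to 110 CPM in the primary tumours, without overlap, a difference of 2.57 ± 0.44 (edgeR adjusted p 0.0041). Pdgfrb (ENSMUSG00000024620, chr18:61045150-61085061) read 124.3, 74.3, 86.8 and 79.4 CPM and from 88 to 350 CPM (median 213), a difference of 1.15 ± 0.34 (edgeR adjusted p 0.0477). Its call was lost in 5 of the 6 other settings: with median-of-ratios scaling (adjusted p 0.0515), without the filter on low counts (0.0552), with a covariate for Xist (0.0914) or for muscle (0.0552), and with all 48 tumours in a fit (0.0808). The difference stayed between 1.14 and 1.16 in these settings and between 0.999 and 1.328 with a tumour left out. The call was also lost without any 1 of the 4 allografts or of primary replicates 1, 2, 3, 6, 7 and 8 (adjusted p 0.0151 to 0.144 over the 12 tumours left out in turn). Rgs5 (0.33 ± 0.42) and Kcnj8 (-0.13 ± 0.44), the more pericyte-restricted pair, were not called (edgeR adjusted p 0.661 and 0.88). Of the 10 further mural and smooth-muscle genes Tagln (3.45 ± 0.65), Acta2 (2.23 ± 0.58) and Cnn1 (4.35 ± 1.14), all of the contractile apparatus, were higher in the primary tumours, against 6.03% of all genes. Summed markers of mesenchymal sarcoma cells were also higher there, 18090 to 42600 CPM against 11710 to 15990 CPM. Their part in the Cspg4 and Pdgfrb differences was not tested.

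Of the 35 further endothelial genes 3 were called at baseline, all higher in the primary tumours, against 6.03% of all genes: Rhoj (1.56 ± 0.25), Efnb2 (0.67 ± 0.17) and Stab1, a scavenger receptor of sinusoidal and lymphatic endothelium and of macrophages (1.18 ± 0.32). Of the 12 further angiogenic factors Cxcl12, a chemokine of stromal cells (1.25 ± 0.17), Pdgfd (2.02 ± 0.30) and Nrp2, the VEGF-C co-receptor (1.16 ± 0.26), were higher and Hgf, hepatocyte growth factor, was lower (-1.57 ± 0.40), against 10% of all genes called. The 12 muscle markers all had a negative difference (median -1.89). Of them 3 had an unadjusted p below 0.05, against 26.1% of all genes, and 0 were called by edgeR.

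Anti-PD-1 against isotype called 0 of the 43 genes in each of the 4 comparisons within a dose and tumour kind, and edgeR called 0% of all genes in them. DESeq2 also called 0 of the 43. At an unadjusted p below 0.05 there were 2 of the 43 in allografts at 0 Gy, against 1.68% of all genes, and 0 at 20 Gy, against 3.84%. Primary tumours had 1 at 0 Gy, against 2.32%, and 11 at 20 Gy, against 8.12%. Icam1 was the single primary gene at 0 Gy (0.91 ± 0.33, unadjusted p 0.00993, edgeR adjusted p 1) and, with Vcam1 (0.63 ± 0.27, and 0.29 without replicate 3 at 0 Gy with anti-PD-1), 1 of the 2 allograft genes (0.62 ± 0.23, unadjusted p 0.0155, edgeR adjusted p 1).

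At 20 Gy the primary tumours given anti-PD-1 had positive differences from isotype in 18 of the 21 broad endothelial genes, with a median of 0.447 where that of all genes was 0.02427. Of the 35 further endothelial genes 29 were positive with a median of 0.405. Pecam1 ran from 46 to 125.9 CPM (median 83.6) with isotype and from 43.7 to 297 CPM (median 121.8) with anti-PD-1, so that the ranges shared their lower part and the highest value stood with anti-PD-1. Its difference was 0.71 ± 0.30 (edgeR adjusted p 0.596). Flt1, which encodes VEGFR-1 (0.80 ± 0.27, edgeR adjusted p 0.573), Tek, the gene of TIE2 (0.89 ± 0.35), Mmrn2 (0.83 ± 0.31) and Vwf, von Willebrand factor (1.56 ± 0.71), had values of the same sign and were not called either. Replicate 4 at 20 Gy with anti-PD-1 carried much of 2 of these values: without it the difference was 0.78 for Vwf and 0.42 for Pecam1. Leaving out 1 tumour at a time moved the median of the 21 genes between 0.3, without replicate 7 at 20 Gy with anti-PD-1, and 0.64, without replicate 3 at 20 Gy with isotype. The summed level of the 21 genes ran from 509.2 to 1166 CPM with isotype and from 429.1 to 1794 CPM with anti-PD-1. Muscle markers ran from 320.6 to 50360 CPM and from 16.62 to 88230 CPM in these groups. The median of the 21 genes stayed between 0.43 and 0.47 over the other settings, a fit with the muscle level as a covariate among them.

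The interaction of dose with antibody called 0 of the 43 genes by edgeR and by DESeq2 in either kind, where edgeR called 0% of all genes. At an unadjusted p below 0.05 there were 0 of 43 in the allografts, against 1.52% of all genes, and 1 in the primary tumours, Flt1 (0.87 ± 0.38, edgeR adjusted p 0.971), against 4.25%. Of the 21 broad endothelial genes 18 had a positive interaction in the primary tumours (median 0.5, and 0.35 to 0.64 without 1 tumour) and 8 in the allografts (median -0.257, -0.48 without replicate 3 at 0 Gy with isotype and -0.06 without replicate 3 at 20 Gy with anti-PD-1).

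Which of the genes varied together from tumour to tumour was read as the correlation of each with Pecam1 over log2 CPM (0.5 CPM added), with group means removed, so that dose, antibody and kind did not enter. In the 32 primary tumours 26 of the 42 other genes correlated with Pecam1 at a permutation p below 0.05 after Benjamini-Hochberg adjustment over the 42 relations, all positively. They included all 20 other broad endothelial genes, from Ecscr (Pearson r 0.5, Spearman rho 0.556, permutation p 0.00403, adjusted 0.00651) to Robo4 (r 0.923, rho 0.933, permutation p 1e-05, the smallest the permutations can give, adjusted 4.2e-05). The median r of the 20 was 0.706. Without the 2 tumours farthest from the median of Pecam1, r was 0.519 for Ecscr and 0.925 for Robo4, and 27 genes passed.

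Of the 22 genes outside the broad endothelial group 6 passed, among them some but not all of the adhesion, angiogenic and mural genes. Selp (r 0.793, rho 0.741, permutation p 2e-05, adjusted 7.6e-05, and r 0.696 without the 2 tumours) and Angpt2 (r 0.694, rho 0.657, permutation p 3e-05, adjusted 9e-05, and r 0.573) passed, as did Aplnr, Notch4, Dll4 and, of the mural genes, Rgs5 (r 0.569, rho 0.515, permutation p 0.00272, adjusted 0.00476, and r 0.546). Icam1 did not (r 0.218, rho 0.099, permutation p 0.306, adjusted 0.39, and r 0.168), nor did Vegfa (r -0.174, rho -0.11, permutation p 0.441, adjusted 0.523, and r -0.141). The 4 lymphatic genes had r from -0.039 to 0.313 and none passed. Selp thus followed the level of Pecam1 among primary tumours, and Icam1 was not shown to.

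**Figure D5:**
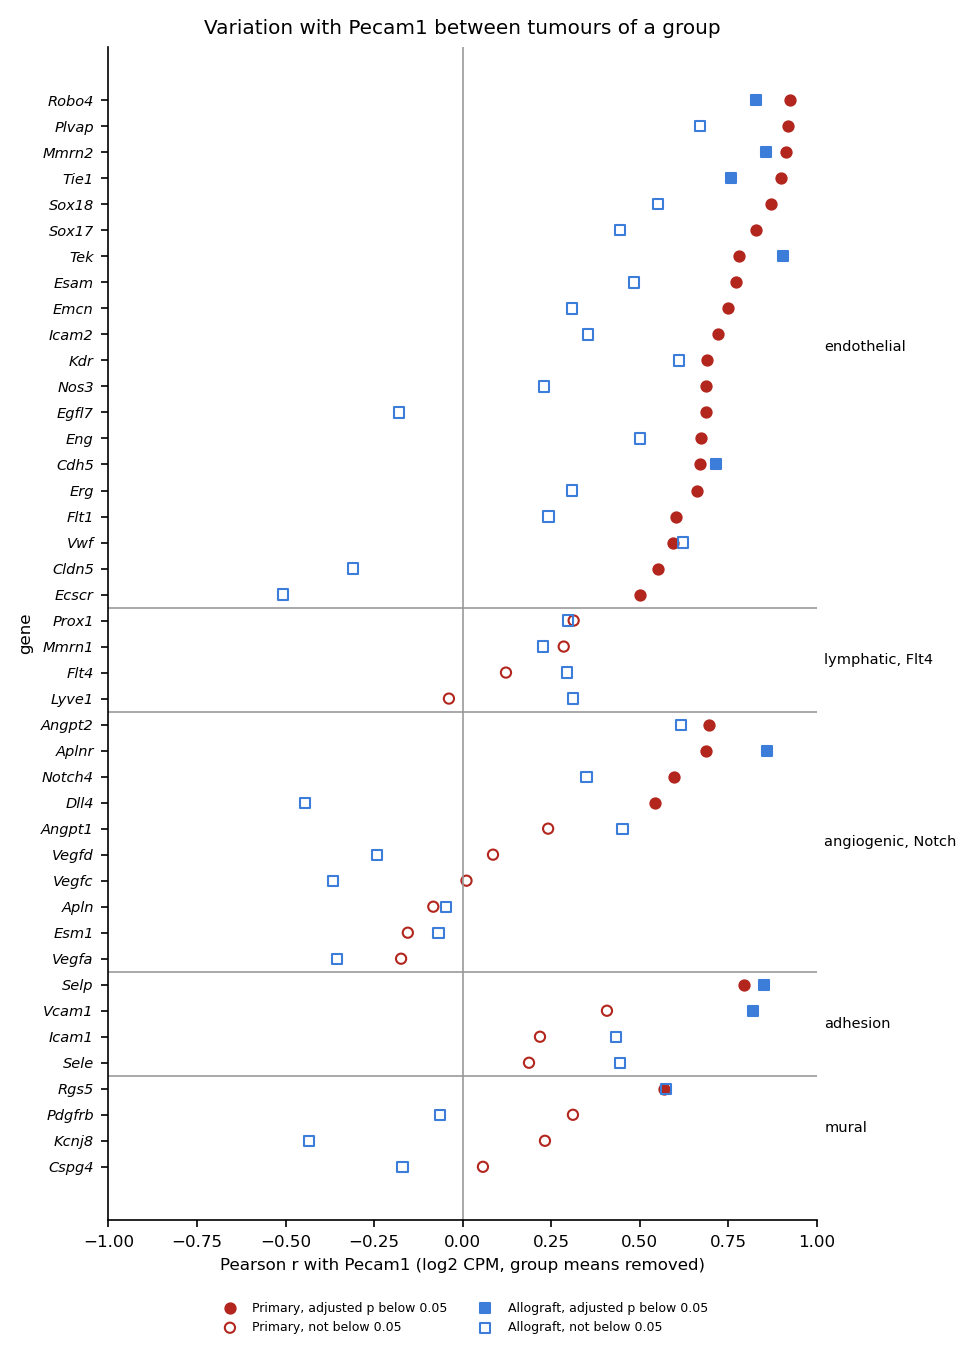
Pearson r with Pecam1 (horizontal axis, no unit) of the 42 other genes (rows, by role) over log2 CPM with group means removed, as red circles for the 32 primary tumours and blue squares for the 16 allografts, filled where the adjusted permutation p is below 0.05. In the primary tumours the 20 other broad endothelial genes lie between 0.5 and 0.923, while the 4 lymphatic genes lie between -0.039 and 0.313.

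In the 16 allografts 8 of the 42 genes passed: Tek (r 0.905), Aplnr (0.858), Mmrn2 (0.855), Selp (0.85), Robo4 (0.828), Vcam1 (0.819), Tie1 (0.756) and Cdh5 (0.716), with Spearman rho from 0.688 to 0.906, permutation p from 0.00014 to 0.00942 and adjusted p from 0.00308 to 0.0495. Without the 2 tumours farthest from the median of Pecam1 none passed. Vcam1 and Tek then had r of 0.858 and 0.793, each at an adjusted p of 0.0529, Aplnr and Selp had 0.717 and 0.71, and Mmrn2, Robo4, Tie1 and Cdh5 had 0.66, 0.609, 0.483 and 0.417. The broad endothelial genes ran from -0.508 (Ecscr) to 0.905.

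Prox1 and Mmrn1 varied together across tumours, a relation examined after their values were seen, as 1 of 3 with Prox1. Over the 32 primary tumours r was 0.964 (rho 0.963, permutation p 1e-05, the smallest the permutations can give, adjusted over the 3 relations 3e-05), and 0.962 without the 2 tumours farthest from the median of Prox1. Over the 16 allografts r was 0.739 (rho 0.697, permutation p 0.00427, adjusted 0.0128, and 0.821 without the 2 tumours). The allograft values of Prox1 lay between 0.286 and 1.82 CPM. Flt4 followed Prox1 less closely in the primary tumours (r 0.536, permutation p 0.00538, adjusted 0.00807) and did not pass by rank (rho 0.352, adjusted permutation p 0.0912). Its r was 0.296 without the 2 tumours, on which that relation rests. Lyve1 did not pass there (r 0.364, rho 0.164, adjusted permutation p 0.0623, and r 0.306 without the 2 tumours). In the allografts Lyve1 passed (r 0.636, rho 0.612, adjusted permutation p 0.042), but not without the 2 tumours (r 0.511, adjusted permutation p 0.211). Flt4 did not pass in the allografts (r -0.0813, adjusted permutation p 0.803).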

How the data were processed

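Bulk RNA-seq of 48 tumours was read from 1 table of raw read counts per Ensembl gene that the authors deposited. The submitters' processing notes name Trimmomatic 0.36, STAR (version written 5.5.4b), HTSeq and the build mm10. Per the labels, RNA was poly(A)-selected and libraries were strand-specific; whether counting used the strand is not given in the sources used here. The table's name refers to a first run, and no further run was used. Each of the 48 columns matched 1 sample, and there were 0 columns of other samples. GENCODE M21 named 36796 of 36854 genes.

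From the counts, edgeR 4.0.16 (R 4.3.3) gave filterByExpr filtering by group, TMM scaling and quasi-likelihood F tests, adjusted over all genes tested: 17746 in the 16 allografts, 17770 in the 32 primary tumours, 17357 at baseline and 19327 for differences between kinds. The biological coefficient of variation was 0.375 in allografts and 0.4995 in primary tumours. The SE is the log2 fold change divided by the square root of F. Correlations used 100000 permutations within groups, or 20000 with a tumour left out. Python 3.11.15 with scipy 1.17.1 and matplotlib 3.10.9 did the rest. Tests were also run on simulated counts with known changes. Their spread was set by expression level and not gene by gene, and the outcome is not reported here.

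Replicate numbers follow accession order. Alternatives were DESeq2 1.42.0, median-of-ratios scaling, no filter, covariates for the first digit of the number in the sample title, for Xist above 10 CPM and for muscle level, a fit of all 48 tumours, limma 3.58.1 voom with quality weights for differences between kinds, and leaving out each tumour. Reads carry no molecular identifiers. Named were all members called in a comparison, those with the smallest p of each role, and up to 4 called genes of each further list. The members and lists were chosen with earlier results of these data known. Promoters came from RefSeq GRCm38.p6, which with mm10 is the same assembly.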

Additional observations from a re-analysis of the deposited data

Results flagged for a closer look

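In 37 of the 344 sets formed by 1 of the 43 genes in 1 group, a single tumour lay far from the others by Dixon's test, which reads the gap to the next tumour as a share of the group's range. Chance flags about 1 in 20 such groups if their values are normally distributed. The CPM were not log-transformed, and how often chance flags them was not tested. Genes of 1 tumour are also not independent. The values fell on 21 of the 43 genes, 36 of them at the high end.

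Lymphatic genes stood out in primary replicate 7 at 0 Gy with anti-PD-1, where Flt4 was 162.2 CPM (next tumour 46.1), Mmrn1 61.34 CPM (next 19.54) and Prox1 24.49 CPM (next 4.805). Primary replicate 2 at 0 Gy with isotype held 12.68 CPM of Prox1 and 69.69 CPM of Vegfc. Allograft replicate 3 at 0 Gy with isotype held 1.548 CPM of Prox1, and primary replicate 7 at 20 Gy with isotype 65.86 CPM of Flt4.

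Primary replicate 7 at 0 Gy with isotype was high for 4 genes: Flt1 (73.4 CPM), Plvap (183.6), Vegfa (198.6) and Dll4 (38.57). Primary replicate 2 at 0 Gy with anti-PD-1 was high for Aplnr (116.4 CPM), Notch4 (106.4) and Selp (13.6). Primary replicate 3 at 20 Gy with isotype was high for Apln (66.9 CPM), Dll4 (20.54) and Kcnj8 (26.94). Primary replicate 4 at 0 Gy with anti-PD-1 was high for Vegfa (236.8 CPM) and Angpt1 (29.32), and allograft replicate 4 of that treatment for Apln (29.62 CPM) and Esm1 (25.45).

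Cdh5 had 1 high primary tumour in 3 groups, 330.1 CPM in replicate 3 at 0 Gy with anti-PD-1, 404.7 CPM in replicate 7 at 20 Gy with isotype (next 101.8) and 374.0 CPM in replicate 7 at 20 Gy with anti-PD-1, which also held 80.49 CPM of Ecscr. Vwf reached 36.18 CPM in allograft replicate 3 at 0 Gy with isotype, 41.56 CPM in allograft replicate 2 at 0 Gy with anti-PD-1 and 167.9 CPM in primary replicate 4 at 20 Gy with anti-PD-1, where Selp was 33.3 CPM. Mmrn2 was high in replicate 3 of both unirradiated allograft groups (35.62 CPM with isotype, 35.96 CPM with anti-PD-1), and Ecscr in allograft replicate 1 at 20 Gy with isotype (66.42 CPM). Esm1 reached 149.8 CPM in primary replicate 8 at 0 Gy with isotype and 232.1 CPM in primary replicate 8 at 20 Gy with isotype (next 47.56). Sele was 10.26 CPM in primary replicate 1 at 0 Gy and 4.97 CPM in primary replicate 2 at 20 Gy with isotype. The single low value was Esam, 36.41 CPM in allograft replicate 4 at 0 Gy with isotype.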

How the results depend on the processing

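Pairs of a gene and a comparison were followed only where the unadjusted p was below 0.05 in the main fit. Over these pairs all 2349 alternative values kept their direction, 2219 kept their side of the threshold, 54 lost a call and 76 gained one. Pairs chosen by a small p seldom change sign, so the kept direction is no test of stability. It does not cover the differences with a larger p. Counts of called vascular genes moved by over 1.5 times as follows. For 20 Gy against 0 Gy with isotype in allografts the 2 became 5 with DESeq2 and 1 with the identifier digit, with Xist or in the fit of all 48 tumours. With anti-PD-1 the 1 became 2 with Xist and 0 in the fit of all tumours. The allograft combination's 2 became 1 with the identifier digit, the muscle covariate or all tumours. In primary tumours with isotype the 1 became 2 with the identifier digit, Xist or muscle and 4 with all tumours. With anti-PD-1 the 3 became 6 with all tumours, and for the combination the 3 became 6 with DESeq2 and with all tumours. For differences between kinds the 0 with isotype became 1 with limma-voom, and the 0 averaged over antibodies became 1 with DESeq2 and 3 with limma-voom. Of the allograft correlations with Pecam1 the 8 became 0 without the 2 farthest tumours.

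Leaving out 1 tumour gave 1 to 6 calls in allografts with isotype (6 without 0 Gy replicate 3, 5 without 20 Gy replicate 1, and 1 without 0 Gy replicate 1, 2 or 4 or 20 Gy replicate 4). With anti-PD-1 it gave 0 to 2 (2 without 0 Gy replicate 1 or 20 Gy replicate 4, 0 without 0 Gy replicate 2 or 4 or 20 Gy replicate 1 or 3), and for the combination 1 to 4 (4 without 0 Gy replicate 3, 1 without 0 Gy replicate 1, 2 or 4 or 20 Gy replicate 1). In primary tumours it gave 1 to 3 with isotype (3 without 20 Gy replicate 2, 3 or 8, 2 without 0 Gy or 20 Gy replicate 7), 1 to 5 with anti-PD-1 (5 without 20 Gy replicate 5, 1 without 20 Gy replicate 4 or 7) and 3 to 7 for the combination (7 without 20 Gy replicate 1, 6 without 0 Gy replicate 7, 5 without 20 Gy replicate 2 or 5). At baseline it gave 5 to 9, for antibody and interaction comparisons 0 throughout, and for correlations with Pecam1 4 to 14 in allografts (14 without replicate 2 at 20 Gy with anti-PD-1, 4 without replicate 3 of either 0 Gy group or replicate 1 at 20 Gy with isotype) and 26 to 28 in primary tumours. Some added calls fell on genes outside the pairs followed, which are not named here. They came without primary replicate 3 or 7 at 20 Gy with isotype, or allograft replicate 4 at 20 Gy with anti-PD-1.

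Counts over all genes moved too. In allografts with isotype the 912 became 1459 with DESeq2, 196 with the identifier digit, 500 with Xist and 372 with all tumours, and 294 to 1415 without 1 tumour. With anti-PD-1 the 703 became 1570 with DESeq2 and 0.595% of the genes tested with all tumours (184 to 1275 without 1 tumour), and the combination's 1714 became 851 with all tumours (919 to 2320). In primary tumours the 2575 with isotype ran from 1706 to 3091, the 1407 with anti-PD-1 became 2309 with DESeq2 and 2156 with all tumours (896 to 1928), and the combination's 2446 ran from 1761 to 3223. The baseline 1738 became 3012 with DESeq2 (732 to 2187). For antibody in primary tumours DESeq2 called 3 genes at 0 Gy and 1 at 20 Gy. For kinds it called 4 with isotype, 2 with anti-PD-1 and 65 averaged, and limma-voom 1559 with isotype and 0.58% of the genes tested when averaged. The cause of these moves was not tested.

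The first digit of the number in the sample title (the identifier digit) was 5 in 4 of 4 allografts and 0 of 8 primary tumours at baseline, so a fit with it could not be made there. Among irradiated isotype allografts it was 5 in 1 of 4, against 4 of 4 unirradiated ones. Xist was above 10 CPM in 1 of 4 unirradiated and 3 of 4 irradiated allografts with either antibody, and in 5 of 8 primary tumours at baseline. No paired analysis was possible because replicate numbers come from accession order only and pair no tumours. Depth limits Prox1 and Mmrn1 in allografts, which stood near or below 1 CPM in part of the tumours, and the spread between tumours limits the rest.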
